A study of Mus musculus with 6 samples.

Results

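The genes described here encode the nuclear subunits and some assembly factors of complexes I to IV of the mitochondrial respiratory chain. They were taken by symbol: every gene on the array whose name begins with Nduf or Uqcr, is Sdha, Sdhb, Sdhc or Sdhd, or begins with Cox followed by a digit from 4 to 8. No expression value entered that choice. Of 18193 genes measured by a probe set annotated to exactly 1 symbol, 73 met the rule, and each gene was read from its brightest probe set by the 6-array mean. Complex I, taken by symbol, gave 44 of them, made up of 6 core subunits, 30 supernumerary subunits and 8 assembly factors. The 30 include Ndufa4, now placed in complex IV, and its paralog Ndufa4l2. Complex II gave 4, complex III 8 and complex IV 17. Ndufs6 and Ndufa11 were measured only by probe sets that list a further symbol, so they are not among the 73.

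Expression was measured on 6 Affymetrix whole-genome mouse arrays: 3 WT (wild type) and 3 Apcmin. The latter genotype bears the Min mutation of Apc, which truncates a scaffold protein of the beta-catenin destruction complex, and the series offers this mouse as a model of MPD and MDS, myeloproliferative and myelodysplastic blood disorders. The RNA of both groups came from LKS+ cells, flow-sorted as Lin-, cKit high and Sca-1+, a mixture of hematopoietic stem cells and multipotent progenitors, and was amplified before labelling. The Min allele is inherited and not restricted to blood cells, so the marrow around the sorted cells carries it too. For age, sex and strain background the sources used here give nothing.

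The respiratory chain passes electrons from NADH and succinate to oxygen in the inner mitochondrial membrane. Complex I (NADH dehydrogenase) and complex II (succinate dehydrogenase, also an enzyme of the TCA cycle) feed electrons to ubiquinone, complex III (the cytochrome bc1 complex) hands them to cytochrome c, and complex IV (cytochrome c oxidase) reduces oxygen. Complexes I, III and IV pump protons, and ATP synthase spends the gradient. All but complex II mix nuclear subunits with subunits encoded by mitochondrial DNA, so their assembly needs both genomes. Quiescent hematopoietic stem cells are known for relying on glycolysis more than their dividing progeny do, and respiration is known to be needed as they differentiate.

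Nuclear respiratory chain genes are textbook targets of NRF-1 and of the Ets-family factor GABP (NRF-2), which is why the sequences just upstream of a few of the genes are shown. They come from a RefSeq promoter table (GRCm38.p6) that held 59 of the 73 genes. In the 250 bases before the start, on either strand, the NRF-1 core GCGCANGCG was found in 8 of 59 genes (13.6%) against 9.47% of 14452 array genes in the table. The Ets core CCGGAAG was found in 10 of 59 (16.9%) against 11.8%. The YY1 word AAGATGGC was found in 0 of 59 against 2.05%, and the TATA box word TATAAA in 5 of 59 (8.47%) against 10.5%. These are letter matches in a fixed window and are not binding sites.

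The NRF-1 core was matched upstream of Cox6a1, Ndufa5, Ndufa8, Ndufaf4, Ndufb4, Ndufs5, Sdha and Sdhd, and the Ets core upstream of Cox6a1, Cox6b1, Ndufaf1, Ndufaf8, Ndufb6, Ndufb7, Ndufs3, Sdhd, Uqcr11 and Uqcrh. Cox6a1 and Sdhd, the genes that held both, are shown with Ndufa8 and Ndufa5, which held NRF-1 matches and whose genotype groups did not overlap (values below the sequences). Capitals mark matches, on either strand. All lie on the minus strand and read 5′ to 3′ toward the gene: Cox6a1 at chr5:115348959-115349208, Sdhd at chr9:50603850-50604099, Ndufa8 at chr2:36049339-36049588, and a stretch for Ndufa5 from 200 to 101 bases before its start at chr6:24527627-24527726.
Cox6a1: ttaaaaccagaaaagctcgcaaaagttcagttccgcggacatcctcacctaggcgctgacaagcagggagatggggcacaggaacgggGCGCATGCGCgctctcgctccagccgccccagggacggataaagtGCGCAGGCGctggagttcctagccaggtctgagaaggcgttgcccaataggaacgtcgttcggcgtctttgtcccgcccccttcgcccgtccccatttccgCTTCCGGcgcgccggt
Sdhd: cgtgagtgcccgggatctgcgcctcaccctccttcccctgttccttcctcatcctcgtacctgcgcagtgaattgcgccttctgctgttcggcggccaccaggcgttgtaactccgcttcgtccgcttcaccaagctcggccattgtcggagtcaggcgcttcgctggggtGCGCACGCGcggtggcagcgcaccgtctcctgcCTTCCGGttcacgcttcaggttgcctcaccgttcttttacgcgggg
Ndufa8: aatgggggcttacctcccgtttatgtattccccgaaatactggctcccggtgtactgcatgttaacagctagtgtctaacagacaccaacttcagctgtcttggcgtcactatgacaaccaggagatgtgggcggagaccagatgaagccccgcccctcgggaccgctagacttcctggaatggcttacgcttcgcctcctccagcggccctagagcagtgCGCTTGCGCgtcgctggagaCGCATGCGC
Ndufa5: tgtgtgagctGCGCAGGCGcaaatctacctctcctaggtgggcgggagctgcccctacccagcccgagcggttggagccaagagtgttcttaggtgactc
The first matches of Cox6a1 overlap each other, beginning 162 and 161 bases before the start, with a further NRF-1 match at 117 and the Ets match at 16. In Sdhd the matches begin 79 (NRF-1) and 46 (Ets) bases before the start. In Ndufa8 they begin 29 and 9 bases before it, and in Ndufa5 the match begins 190 bases before it.

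A pair of paralogs whose array values differed widely, the widely expressed Cox8a (chr19:7217617-7217716) and the muscle isoform Cox8b (chr7:140900447-140900546), is shown for contrast over the 100 bases before each start, also on the minus strand. Neither stretch held any of the 4 motifs, so nothing is in capitals.
Cox8a: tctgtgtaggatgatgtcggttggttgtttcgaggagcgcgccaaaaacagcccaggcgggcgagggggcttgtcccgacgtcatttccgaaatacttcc
Cox8b: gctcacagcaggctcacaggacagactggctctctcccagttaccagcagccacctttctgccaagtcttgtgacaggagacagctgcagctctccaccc

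Cell type markers were read first. All 8 measured LKS+ markers (Kit, Cd34, Flt3, Meis1, Gata2, Hlf, Mecom and Slamf1) averaged 6 or more in log2 intensity, and their log2 summed intensity was 12.81 to 13.00 on the WT arrays and 12.96 to 13.03 on the Apcmin arrays. The 3 T cell, 2 B cell and 6 muscle markers measured were all under 6. Their summed levels were 4.30 to 4.63 in WT and 3.60 to 4.16 in Apcmin for T cells, 3.63 to 4.57 and 3.62 to 3.77 for B cells, and 5.37 to 6.16 and 5.47 to 5.74 for muscle. Granulocyte and monocyte markers were present, 3 of 5 at 6 or more with S100a8 at a mean of 11.36, and summed to 12.61 to 13.02 in WT and 12.72 to 12.79 in Apcmin. Erythroid markers (1 of 5 at 6 or more, Klf1) summed to 7.64 to 9.54 and 7.50 to 9.04, and megakaryocyte markers (2 of 3) to 7.97 to 9.07 and 7.80 to 8.67. These sums follow their brightest genes. By single genes, all 5 granulocyte and monocyte markers and 4 of 5 erythroid markers had lower means in Apcmin. So did all 3 T cell, 2 of 2 B cell, 5 of 6 muscle, 2 of 3 megakaryocyte and 1 of 8 LKS+ markers. Of all 18193 genes, 10374 had the lower mean in Apcmin. Groups did not overlap for the dim Slc4a1 (4.46 ± 0.36 in WT, 2.98 ± 0.36 in Apcmin, SD, n = 3), Hba-a1 (2.32 ± 0.27 and 1.87 ± 0.10) and Cd14 (4.33 ± 0.55 and 3.31 ± 0.51). All 3 were lower in Apcmin, as were 4.76% of all genes without overlap. None of these markers passed the adjusted test, and their part in the values of the respiratory chain genes was not tested. In RNA from sorted populations, fewer cells of a type and less RNA per cell cannot be told apart. Arrays were alike in scale, with a median log2 intensity of 4.12 to 4.18 and 33.3% to 34.5% of probe sets at 6 or more.

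Respiratory chain genes were among the brightest on these arrays. A mean log2 intensity of at least 6 was reached by 65 of 73 genes (89.0%), against 47.6% of all genes, and a mean of at least 10 by 36 (49.3%), against 6.45%. The median over the 73 was 9.92, and over all genes 5.70. By complex the medians were 9.86 for complex I, 9.43 for complex II, 9.96 for complex III and 10.15 for complex IV. The brightness of a probe set depends on its probes as well as on the transcript, so the order of genes by intensity is not an order of transcript amounts.

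**Figure D1:**
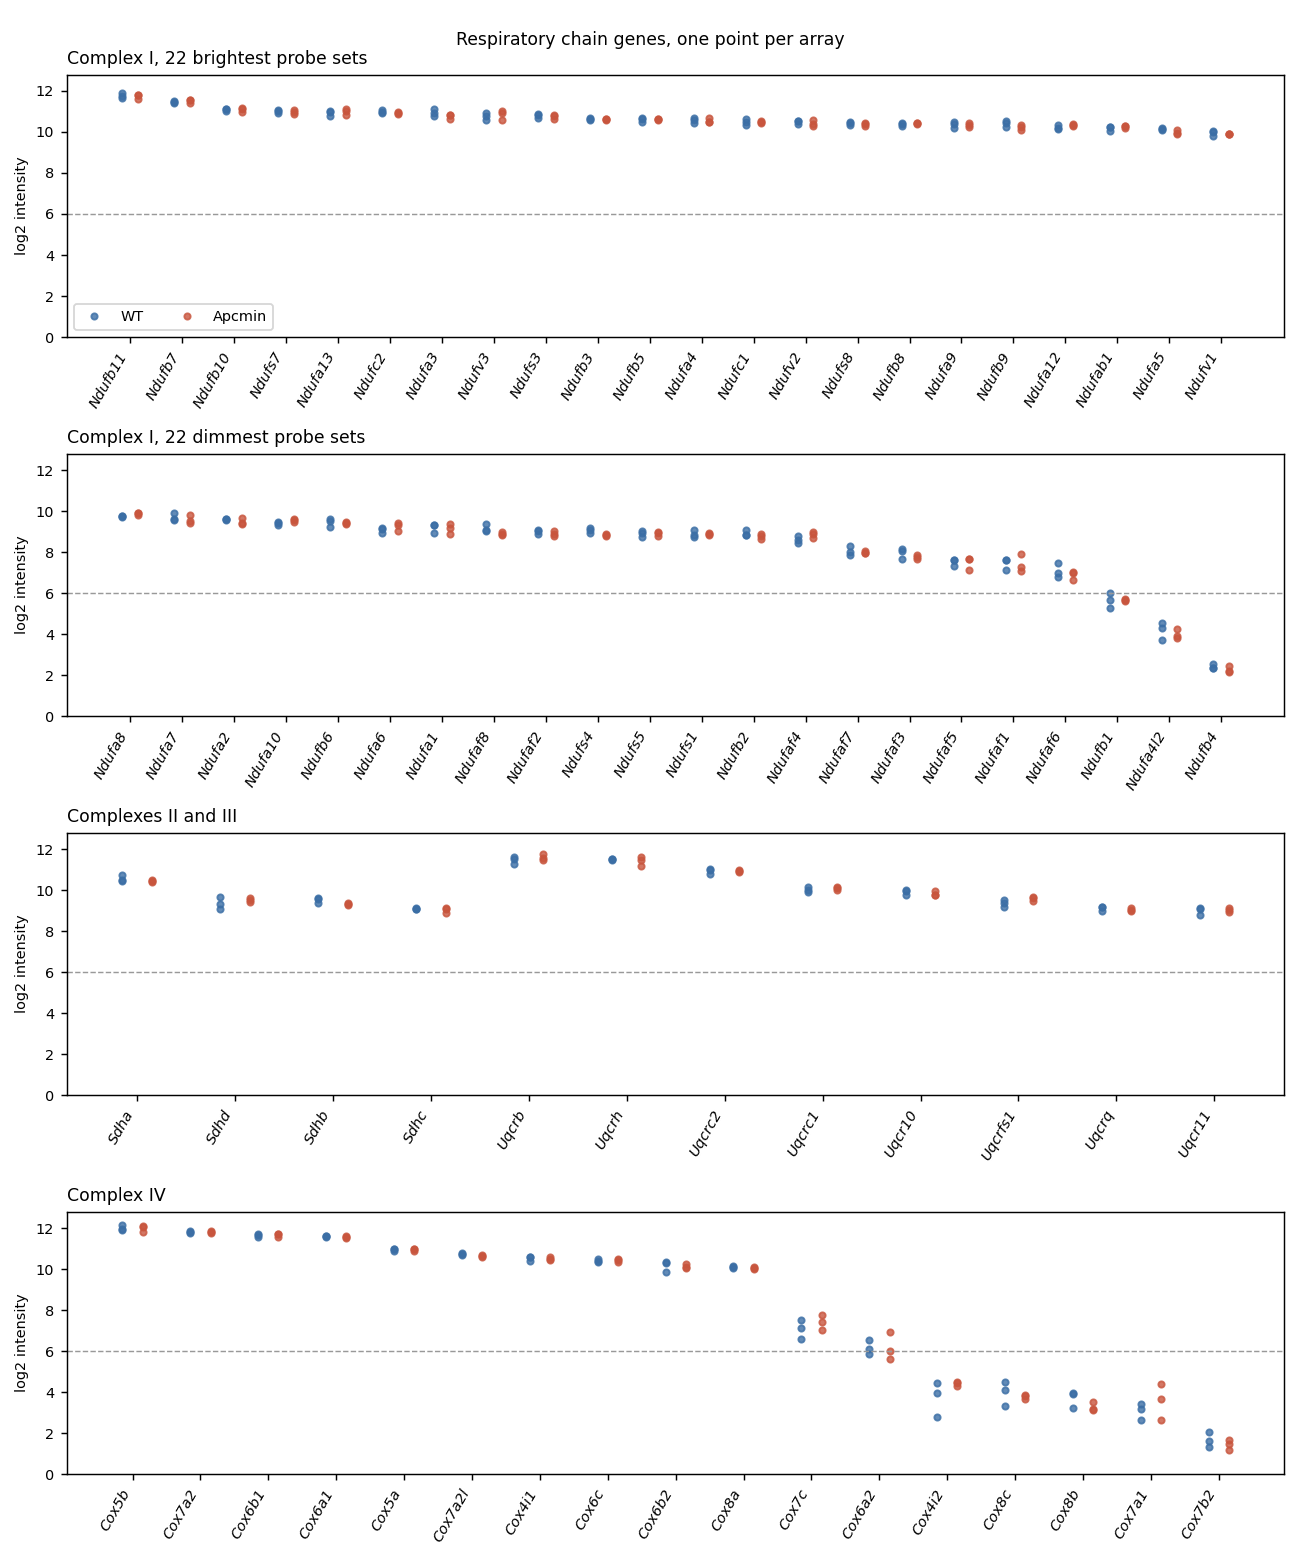
Log2 intensity (vertical axis) of each of the 73 genes on each of the 6 arrays, with WT in blue and Apcmin in red, 1 point per array; genes run from bright to dim within each complex and the dashed line marks 6. Of the 73 genes, 65 have a mean at 6 or more, and the points of most of those lie close together.

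No gene of the chain passed the test between genotypes. Apcmin was compared with WT by limma over 45037 probe sets with Benjamini-Hochberg adjustment, and differences are Apcmin minus WT in log2 units. With an adjusted p under 0.05, 0 of the 73 genes were called, and 0% of all probe sets. At an unadjusted p under 0.05 the count was again 0 of 73, where 3.11% of all genes passed. Bright genes passed less often in this fit: 116 of all 8658 genes with a mean of at least 6, and 1 of 1174 with a mean of at least 10. With only probe sets of a mean of at least 6 fitted, 2.91% of the 8658 genes passed, and 0 of the 65 of the chain. The lowest adjusted p among the 73 was 0.954, which was also the lowest on the arrays. Of the 73, 25 had the higher mean in Apcmin and 48 the lower, and the median difference was -0.02, beside -0.04 over all genes. Among genes with a mean of at least 6, the median was -0.02 for the 65 of the chain and 0.02 for all such genes.

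The intervals were narrow for many of the genes. The 95% confidence interval lay within 0.5 log2 units of 0 on both sides, a 1.41-fold change, for 48 of 73 genes (65.8%), against 28.8% of all genes. That difference goes with brightness: among genes with a mean of at least 10, the interval did so for 31 of 36 respiratory chain genes and for 84.0% of all such genes. Over the 65 genes with a mean of at least 6, differences ran from -0.23 to 0.33, 42 lay within 0.1 of 0, and the median half-width of the interval was 0.34. The median SD within groups was 0.11 for those 65 genes and 0.18 for all genes at 6 or more; at 10 or more it was 0.09 and 0.11.

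**Figure D2:**
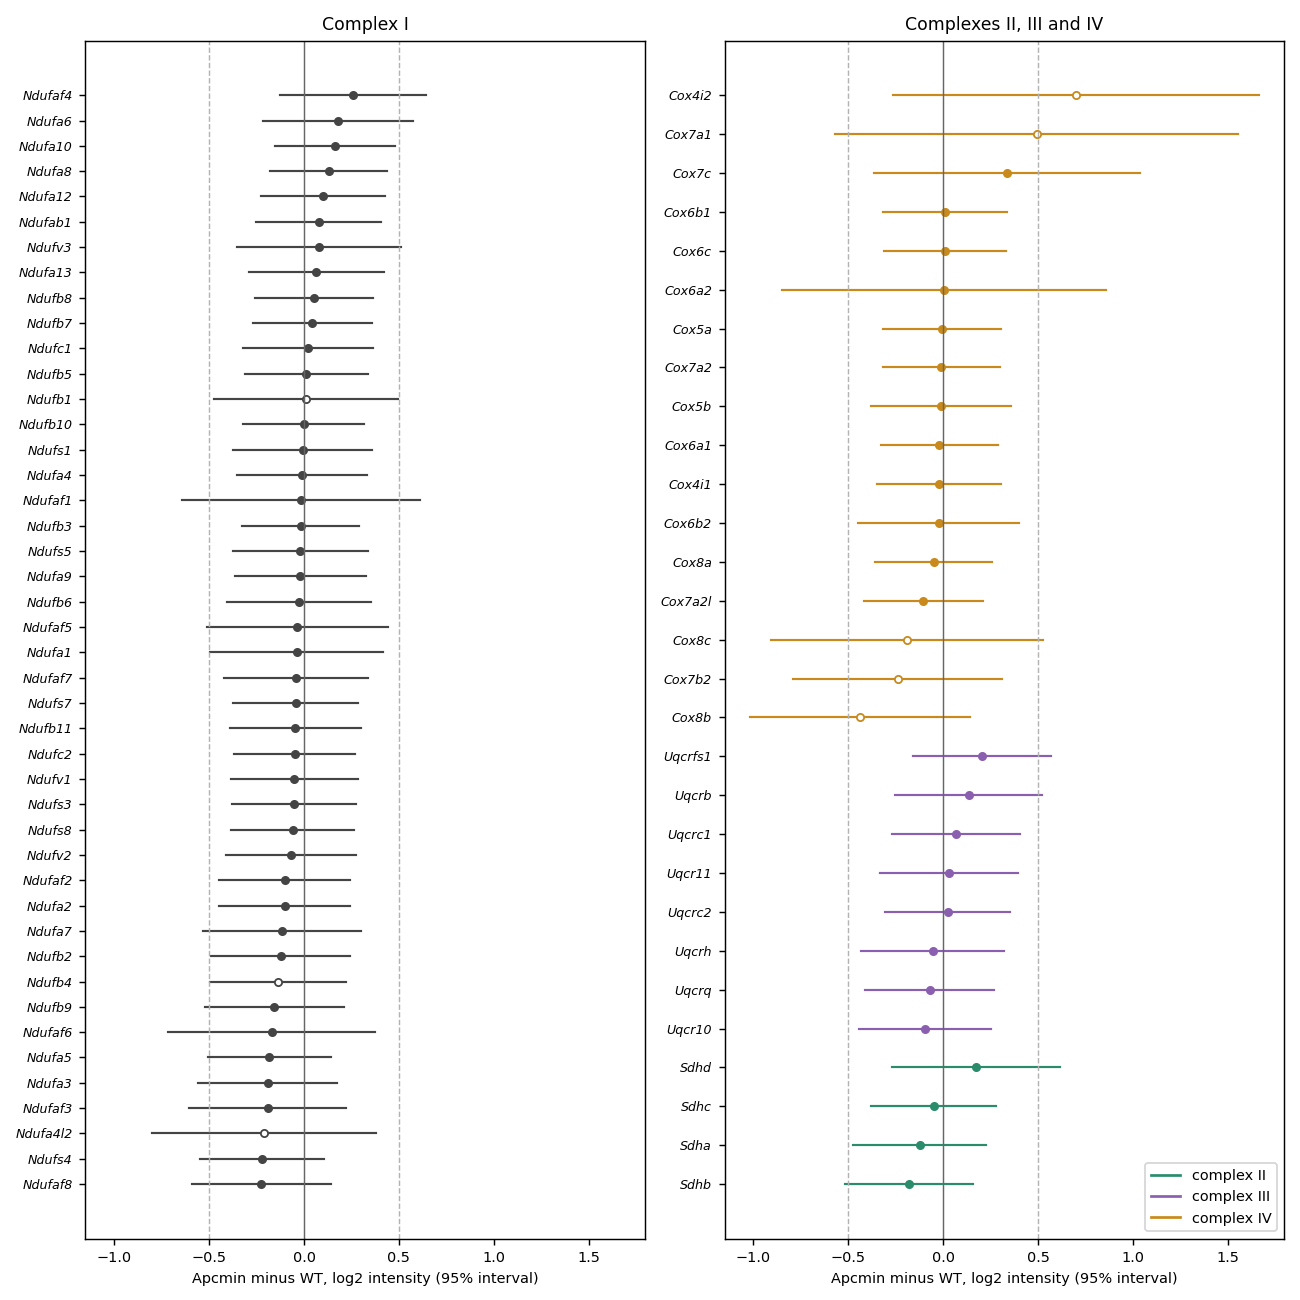
Apcmin minus WT difference in log2 intensity for each of the 73 genes (points) with its 95% confidence interval from limma (lines), 3 arrays a group, complex I on the left and complexes II to IV on the right. Filled points have a mean of at least 6 and open points a lower one, dashed lines mark 0.5 log2 units either side of 0, and every interval crosses 0.

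Groups did not overlap for 5 of the 73 genes (6.85%), against 7.73% of all genes. Ndufa10 and Ndufa8 were higher on all 3 Apcmin arrays, where 2.97% of all genes were, and Ndufa5, Ndufaf8 and Ndufs4 were lower on all 3, where 4.76% of all genes were. The share of the 73 is near that background. The count rose with single arrays left out, to 23 of 73 without WT replicate 3, beside 32.8% of all genes. Non-overlap is easier to meet with fewer arrays in a group, and of all genes 13.8% to 32.8% then met it. All 5 genes named above belong to complex I, which makes up 44 of the 73. They are 11.4% of its genes, against 7.73% of all genes.

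The 6 core subunits of complex I belong to the set conserved from bacteria, which includes those that hold the flavin and the iron-sulfur clusters. All 6 had slightly lower means in Apcmin, with differences from -0.07 to -0.01, and all 6 intervals lay within 0.5 of 0. Ndufv1, which binds NADH and FMN, was at 10.05, 9.99 and 9.79 in WT and 9.91, 9.89 and 9.89 in Apcmin. Its partner Ndufv2 was at 10.51, 10.52 and 10.41 in WT and 10.30, 10.37 and 10.57 in Apcmin. In both, values of the groups overlapped. WT and Apcmin means of Ndufs1, the largest iron-sulfur subunit, were 8.88 ± 0.19 and 8.87 ± 0.06 (SD, n = 3 each), and those of Ndufs3 were 10.79 ± 0.09 and 10.74 ± 0.08. Ndufs7 and Ndufs8, which carry the clusters nearest ubiquinone, had WT means of 11.01 ± 0.08 and 10.43 ± 0.09 and Apcmin means of 10.97 ± 0.10 and 10.37 ± 0.08. The shared direction did not outlast single arrays: 2 of the 6 had the higher mean in Apcmin without WT replicate 1, and 1 without Apcmin replicate 1 or without Apcmin replicate 2. Of the core subunits that mitochondrial DNA encodes, ND5 had a probe set, at 11.15, 10.76 and 10.99 in WT and 10.97, 10.93 and 10.96 in Apcmin, a difference of -0.01 (95% interval -0.38 to 0.35).

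Supernumerary subunits surround that core and are needed for its assembly and stability. By medians over the whole complex the difference was -0.04, and 0.003 without WT replicate 1. Of the 30, 12 had the higher mean in Apcmin and 18 the lower, with a median difference of -0.02, and 22 of 30 intervals lay within 0.5 of 0. These counts include Ndufa4 and Ndufa4l2, which are placed here by symbol alone. Ndufs4, a small subunit of the matrix arm whose loss causes Leigh syndrome, was at 9.16, 9.06 and 8.94 in WT and 8.90, 8.82 and 8.78 in Apcmin. All 3 Apcmin values lay under the lowest WT value, by a narrow margin. The difference was -0.22 (SE 0.14, 95% interval -0.55 to 0.11; adjusted p = 0.954 by limma). Ndufa5, also of the matrix arm, was at 10.20, 10.10 and 10.14 in WT and 9.88, 9.93 and 10.08 in Apcmin, a difference of -0.18 (95% interval -0.51 to 0.14).

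On the other side, Ndufa10, a matrix subunit related to nucleoside kinases, was at 9.33, 9.40 and 9.45 in WT and 9.48, 9.55 and 9.63 in Apcmin. The groups again barely separated, and the difference was 0.16 (95% interval -0.15 to 0.48). Ndufa8, which faces the intermembrane space, was at 9.77, 9.74 and 9.70 in WT and 9.81, 9.90 and 9.89 in Apcmin, a difference of 0.13 (95% interval -0.18 to 0.44). Both differences are near the smallest standard error among the 73 genes, 0.13, which limma moderates over all probe sets. The SDs within groups were 0.06 in WT and 0.07 in Apcmin for Ndufa10, and 0.04 and 0.05 for Ndufa8 (n = 3 each).

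The brightest genes of complex I were the membrane-arm subunits Ndufb11 and Ndufb7, with means of 11.76 and 11.49 and differences of -0.05 and 0.04. The dimmest were Ndufb4 (2.34) and Ndufa4l2 (4.08), the latter a paralog of Ndufa4 known as a hypoxia-induced gene. Ndufb4 also had brighter probe sets, at 10.30 and 9.20, that list 2 further symbols and were left out by the rule, with differences of -0.04 and -0.03. The brightest shared probe sets of Ndufs6 and Ndufa11 were at 9.77 and 9.30 with differences of 0.05 and -0.10. Ndufab1, the mitochondrial acyl carrier protein, averaged 10.19 ± 0.12 in WT and 10.26 ± 0.04 in Apcmin (SD, n = 3 each). Ndufa4, named for complex I and now placed in complex IV, was at 10.57 ± 0.13 and 10.56 ± 0.09.

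The 8 Ndufaf genes encode assembly factors, which build complex I and are not part of the finished enzyme. Their intensities were lower than those of the subunits, with a median of 7.94 and none at 10, and 7 of 8 had the lower mean in Apcmin. The median difference was -0.07, and it was 0.03 without WT replicate 1. Ndufaf8, the partner of Ndufaf5, was at 9.01, 9.35 and 9.05 in WT and 8.85, 8.90 and 8.98 in Apcmin. The groups did not overlap, and the difference was -0.23 (95% interval -0.59 to 0.14). Ndufaf4 was the exception in direction, at 8.59, 8.45 and 8.77 in WT and 8.996, 8.68 and 8.90 in Apcmin. These groups overlap, and the difference was 0.26 (95% interval -0.13 to 0.64). Intervals were wider here, and 2 of 8 lay within 0.5 of 0.

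Complex II has 4 nuclear subunits and none from mitochondrial DNA. Sdha, the flavoprotein that oxidizes succinate, was at 10.75, 10.51 and 10.43 in WT and 10.43, 10.41 and 10.48 in Apcmin. Sdhb, the iron-sulfur subunit, was at 9.60, 9.57 and 9.35 in WT and 9.28, 9.35 and 9.35 in Apcmin. For both, WT replicate 3 lay among the Apcmin values. The membrane anchor Sdhc was at 9.08, 9.06 and 9.13 in WT and 9.13, 9.08 and 8.90 in Apcmin. Sdhd, the other anchor, was at 9.33, 9.07 and 9.65 in WT and 9.62, 9.52 and 9.43 in Apcmin, so that the WT values span those of Apcmin. The differences were -0.13 for Sdha, -0.18 for Sdhb, -0.05 for Sdhc and 0.17 for Sdhd. Their median was -0.09, and -0.04 without WT replicate 1.

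Complex III was the group in which more genes had the higher mean in Apcmin, 5 of 8, with a median difference of 0.03, which was -0.03 without WT replicate 2. Uqcrfs1, the Rieske iron-sulfur protein, was at 9.20, 9.37 and 9.53 in WT and 9.66, 9.59 and 9.46 in Apcmin. The highest WT value lay above the lowest Apcmin value, and the difference was 0.20 (95% interval -0.16 to 0.57). Uqcrb, a ubiquinone-binding subunit and the brightest gene of the complex, was at 11.53, 11.28 and 11.61 in WT and 11.78, 11.48 and 11.56 in Apcmin. The core proteins Uqcrc1 and Uqcrc2 differed by 0.07 and 0.02. The hinge protein Uqcrh, at 11.48 ± 0.03 in WT and 11.43 ± 0.21 in Apcmin (SD, n = 3), differed by -0.06. Uqcrq, Uqcr10 and Uqcr11, small subunits of the membrane part, differed by -0.07, -0.10 and 0.03. No complex III gene had groups that did not overlap, and 6 of 8 intervals lay within 0.5 of 0.

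Complex IV has subunits found in most tissues and isoforms restricted to a few. Of its 17 genes, 6 had the higher mean in Apcmin and 11 the lower, with a median difference of -0.01, which was 0.02 without Apcmin replicate 1. The 10 widely expressed subunits had a median intensity of 10.83 and a median SD within groups of 0.07, and 9 of 10 intervals lay within 0.5 of 0. Cox5b, the brightest of the 73 genes, was at 11.91, 12.17 and 11.96 in WT and 11.83, 12.06 and 12.11 in Apcmin. Cox7a2 was at 11.78, 11.80 and 11.88 in WT and 11.80, 11.84 and 11.78 in Apcmin. Cox6a1, whose upstream sequence is printed above, was at 11.61, 11.60 and 11.58 in WT and 11.57, 11.52 and 11.64 in Apcmin. The 3 genes varied by at most 0.34 log2 units over all arrays and differed by -0.01, -0.01 and -0.02 between genotypes. Cox4i1, a regulatory subunit, averaged 10.54 ± 0.11 on WT and 10.52 ± 0.05 on Apcmin arrays, and Cox6b1 11.66 ± 0.07 and 11.67 ± 0.09 (SD, n = 3).

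Cox8a was at 10.11 ± 0.05 and 10.05 ± 0.05 (SD, n = 3). Cox7a2l, which helps join complexes III and IV into supercomplexes, differed by -0.11 (95% interval -0.42 to 0.21). Cox7c was the least bright of the widely expressed subunits and its interval alone among them went beyond 0.5. It was at 6.58, 7.52 and 7.13 in WT and 7.03, 7.76 and 7.45 in Apcmin, a difference of 0.33 (95% interval -0.37 to 1.03) with overlapping groups.

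The 7 tissue isoforms had a median intensity of 3.89, and 2 of them reached 6. Cox4i2, the lung isoform, was at 2.77, 4.45 and 3.97 in WT and 4.52, 4.32 and 4.45 in Apcmin. WT replicate 1 was the low value, and the interval of the difference of 0.70 ran from -0.27 to 1.66. The heart and skeletal muscle isoform Cox7a1 was at 2.65, 3.17 and 3.41 in WT and 3.69, 4.39 and 2.63 in Apcmin. Cox8b, also of muscle and shown above, was at 3.97, 3.94 and 3.23 in WT and 3.17, 3.14 and 3.52 in Apcmin, a difference of -0.44 (95% interval -1.02 to 0.14). WT replicate 3 lay with the Apcmin values. At such intensities there is no detection call, so these values may hold little or no transcript signal.

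Cox6a2, the muscle counterpart of Cox6a1, was at 6.12, 5.89 and 6.55 in WT and 5.99, 6.95 and 5.63 in Apcmin. The testis isoforms Cox7b2 and Cox8c had means of 1.56 and 3.89 and differences of -0.24 and -0.19. Cox6b2, known as the testis isoform of Cox6b1, stood apart from the other isoforms with 10.33, 10.29 and 9.86 in WT and 10.05, 10.09 and 10.26 in Apcmin. It rests on a single probe set, and its groups overlapped, with a difference of -0.03 (95% interval -0.45 to 0.40).

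**Figure D3:**
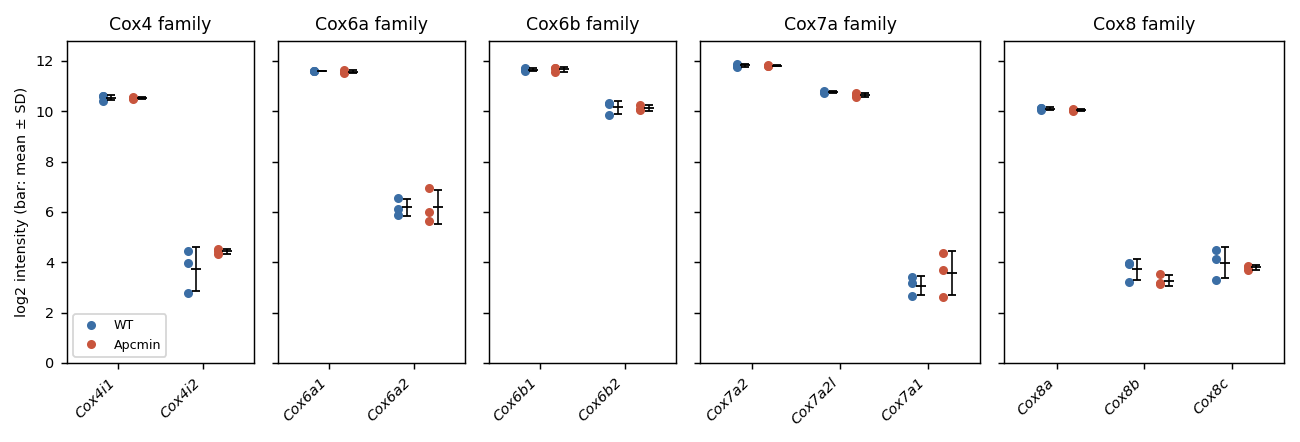
Log2 intensity on each of the 6 arrays (points, WT in blue and Apcmin in red) for the members of the Cox4, Cox6a, Cox6b, Cox7a and Cox8 families, with the mean and SD of 3 arrays as black bars. The tissue isoforms drawn lie at 7 or below except Cox6b2, which has a mean of 10.15.

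Other probe sets of the same genes gave a second reading. They numbered 75, over 41 genes, and 52 of them had a mean of at least 6. Among those 52, 38 had the same sign as the brightest probe set, and the median absolute gap between the differences was 0.07. Among them, the other probe set of Ndufaf4 gave 0.21, that of Ndufa5 gave 0.03 and the brightest other of Ndufs4 gave -0.08, so the differences of the last 2 genes were smaller or of the other sign there. Other probe sets with a mean under 6 gave -0.23 for Ndufaf8 (mean 5.53), 0.16 for Ndufa10 (mean 5.27), and 0.02 and -0.08 for Ndufs4 (means 3.16 and 4.95). Ndufa8 has a single probe set. A single other probe set had an unadjusted p under 0.05, for Ndufb9, at a mean of 1.90.

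Single arrays differed from each other in the level of these genes. Relative to each gene's own mean, the median deviation of the 73 genes was 0.07 on WT replicate 1 and -0.06 on Apcmin replicate 1, and between -0.003 and 0.02 on the other 4 arrays. On Apcmin replicate 1, 23 of 73 genes lay above their own mean, as did 0 of the 10 widely expressed complex IV subunits and 1 of the 6 core subunits of complex I. All genes with a mean of at least 10 had a median deviation of 0.03 on that array. On WT replicate 2, complex III had a median of -0.10, with 1 of 8 genes above its own mean. The mean log2 level of the erythroid markers was 5.02, 4.72 and 4.09 on the WT arrays and 4.35, 3.79 and 4.44 on the Apcmin arrays. It was highest on WT replicate 1, where the 73 genes were highest, and lowest on Apcmin replicate 2, where they were not low. Their part in these values was not tested.

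Among the 65 genes with a mean of at least 6, 22 (33.8%) had the higher mean in Apcmin, against 56.3% of all 8658 such genes. That share varied with single arrays. It was 46.2% without WT replicate 1 and 46.2% without Apcmin replicate 1, against 52.8% and 53.6% of all genes, and 49.2% against 58.0% without WT replicate 3. Processing moved it too: it was 27.7% against 49.4% after further quantile normalization and 44.6% against 56.7% with array weights in the fit. The differences behind it are mostly under 0.1, and genes of 1 complex are not independent of each other.

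**Figure D4:**
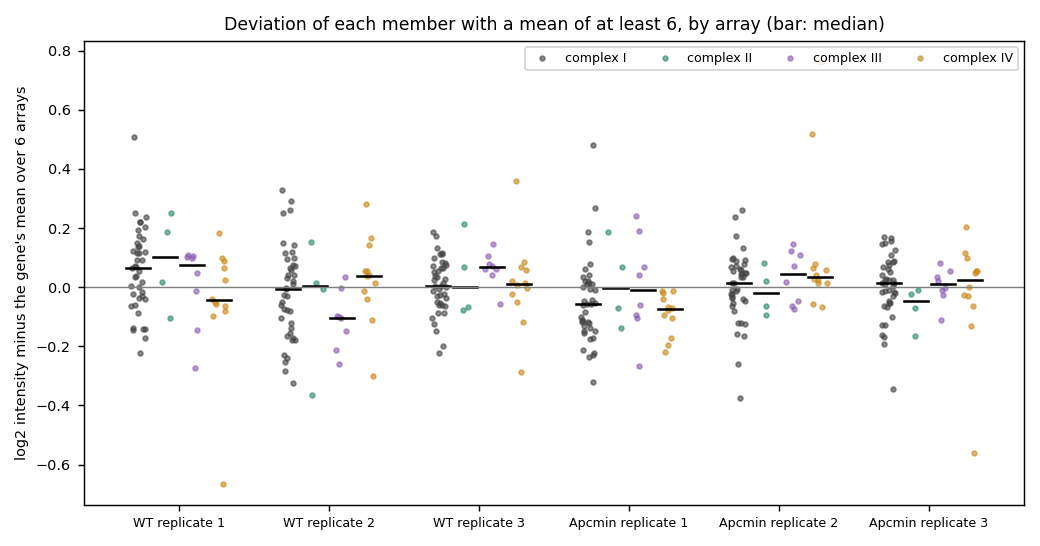
Log2 intensity minus the gene's own 6-array mean (vertical axis) on each array, 1 point for each of the 65 genes with a mean of at least 6, coloured by complex, with medians as black bars. On Apcmin replicate 1 the bars of all complexes lie below 0, those of complexes II and III only slightly (-0.001 and -0.01). The bar of complex III lies at -0.10 on WT replicate 2.

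The rest of the oxidative pathway was read from lists of related genes. ATP synthase, which uses the proton gradient, had 20 genes measured, 17 of them at 10 or more, with 9 higher and 11 lower in Apcmin and a median difference of -0.02. Atp5b, its catalytic beta subunit, was at 11.04, 11.08 and 11.15 in WT and 11.26, 11.17 and 11.24 in Apcmin, a difference of 0.14, and the assembly factor Atpaf1 differed by 0.20. Groups did not overlap for 4 of the 20 genes, against 7.73% of all genes, with the counts of the other lists given below. Atp5b, Atpaf1 and Atp5j (0.04) were higher in Apcmin, and Dmac2l (-0.13) was lower. Cytochrome c and other genes of complexes III and IV had 16 of 28 higher, with a median of 0.04. Cytochrome c itself (Cycs) differed by -0.01 and cytochrome c1 (Cyc1) by 0.09. Lrpprc, which stabilizes mitochondrial mRNAs, was at 7.83, 8.10 and 8.10 in WT and 8.29, 8.28 and 8.38 in Apcmin, a difference of 0.30, and the complex III assembly factor Uqcc2 differed by -0.24.

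Complex I and II assembly genes outside the symbol rule had 6 of 11 higher (median 0.02), with Ecsit at 0.30 and Nubpl, which delivers iron-sulfur clusters to complex I, at -0.26. The TCA cycle had 12 of 18 higher (median 0.04), with Idh3b at 0.17 and Pdhx at -0.17. Mitochondrial import and MICOS genes had 15 of 26 higher (median 0.01), and the mitochondrial ribosome 42 of 76 (median 0.01). Pmpca, a subunit of the peptidase that trims imported proteins, was at 8.88, 9.25 and 9.22 in WT and 9.50, 9.56 and 9.58 in Apcmin, a difference of 0.43. Mrpl46, of the large ribosomal subunit, was at 7.89, 7.97 and 8.08 in WT and 8.33, 8.33 and 8.38 in Apcmin, a difference of 0.37. They are the only genes of these 7 lists with an unadjusted p under 0.05, 1 of 26 and 1 of 76. Of all genes 3.11% passed, and of those with a mean of at least 6, 116 of 8658. With only probe sets of a mean of at least 6 fitted, 2.91% of the 8658 passed. The adjusted p of Pmpca and Mrpl46 was 0.954 (limma). Tomm70a and Mrpl28 differed by 0.26 and -0.24.

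Mitochondrial biogenesis genes, the regulators and mitochondrial DNA factors, had 15 of 20 higher and the highest median of the lists, 0.12. Ppargc1b, a coactivator of nuclear respiratory chain genes, was at 4.95, 5.36 and 5.64 in WT and 5.77, 5.63 and 5.91 in Apcmin, a difference of 0.45 (95% interval -0.04 to 0.95). Ppargc1a was at 4.72, 2.90 and 3.77 in WT and 4.38, 4.80 and 4.95 in Apcmin, a difference of 0.92 (95% interval -0.13 to 1.97). Both coactivators had a mean under 6 and overlapping groups. Tfam, which packages and transcribes mitochondrial DNA, differed by 0.15, and the factors named for the upstream motifs, Nrf1 and Gabpa, by -0.04 and 0.07. No gene of the 7 lists had an adjusted p under 0.05. The list of cytochrome c and other genes of complexes III and IV had 5 of 28 genes with groups that did not overlap. Complex I and II assembly genes had 2 of 11, ATP synthase 4 of 20 and the mitochondrial ribosome 4 of 76. The TCA cycle had 1 of 18, import and MICOS 1 of 26 and biogenesis 0 of 20. Of all genes the share was 7.73%.

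**Figure D5:**
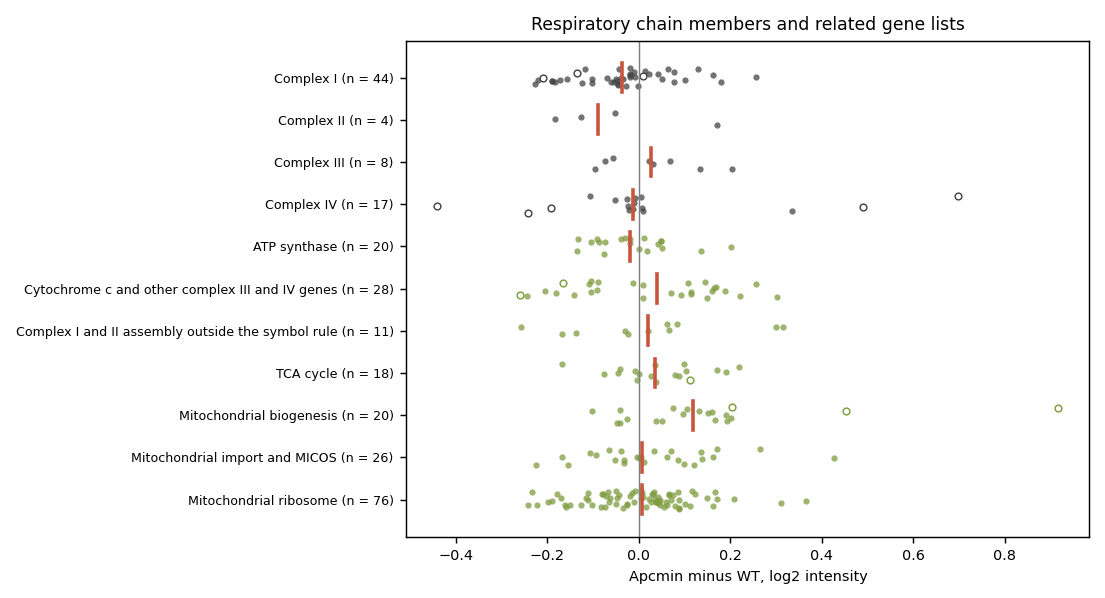
Apcmin minus WT difference in log2 intensity for every measured gene (points) of complexes I to IV and of the 7 related lists, with the median of each as a red bar and genes of mean under 6 as open points. Medians run from -0.09 for complex II to 0.12 for mitochondrial biogenesis.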

How the data were processed

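Intensity values were deposited on a linear scale, 1 for each probe set of each array. The submitters' processing notes name RMA, with no version in the sources used here. Because the deposited intensity values were not logged, log2 was taken with no pseudocount. Dim probe sets carry no detection call. Of 45101 rows, 64 controls were left out. Annotation gave 34945 probe sets exactly 1 symbol, 932 more than 1 and 9160 none. Entrez identifiers were looked up in a RefSeq table (GRCm38.p6), where 34741 matched and 0 symbols changed.

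All 45037 probe sets were fitted with limma 3.58.1 in R 4.3.3, using lmFit and eBayes with genotype alone, Benjamini-Hochberg adjustment over all of them and a threshold of 0.05. The number of arrays limits the precision. Cells were counted per mouse in the labels. Arrays are therefore taken as separate mice, which the labels do not state, and p-values measure only the spread between these arrays.

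The genes, lists and cell type markers were chosen with earlier results of these data known. Named genes are, per complex, the 2 of smallest p in each direction, the 2 brightest and the 2 dimmest, the core, Sdh, main Uqcr and isoform genes, Ndufa4 and Ndufab1, any gene whose groups do not overlap, and of each related list the 2 of smallest p plus 6 regulators and cytochromes. Cox7a2l, Ndufb9, ND5 and the probe sets that list several symbols were added after their values were seen. Alternatives were a filter at a mean of 6, a floor of 4, a pseudocount of 16, quantile normalization, a mean-variance trend, array weights, a replicate block, the mean of all probe sets, and each array left out.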

Additional observations from a re-analysis of the deposited data

How the results depend on the processing

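No probe set had an adjusted p under 0.05 in any setting. The median differences of all 73 genes and of complexes I, III and IV moved by less than the spread between replicates. For the 73 genes that spread was 0.04, beside a median of -0.02, so a median could change sign and still move by less. Those of complexes I, III and IV did change sign with single arrays left out, as given above. Genes of the 73 at an unadjusted p under 0.05 numbered 4 with values under 4 set to 4 and 4 with a pseudocount of 16 (Ndufa10, Ndufa5, Ndufa8 and Ndufs4, where 2.40% and 3.89% of all genes passed), and 0 to 2 with single arrays left out; the 2 were Cox8b and Cox8c without WT replicate 3, where 12.9% of all genes passed. Genes whose groups do not overlap numbered 3 when all probe sets of a gene were averaged (7.73% of all genes), 4 after quantile normalization (8.22%) and 6 to 23 with single arrays left out (13.8% to 32.8%). The median of complex II ran from -0.11 to -0.043 with single arrays left out. Of 1014 values of single genes, 10 moved by at least 1 SD. Of 98 list medians, 11 moved; that of cytochrome c and other complex III and IV genes was -0.01 without WT replicate 2, that of the mitochondrial ribosome -0.03 without Apcmin replicate 3 and that of ATP synthase 0.02 without WT replicate 3. The cause was not tested. With the replicate number as a block, 0 probe sets and 0 of the 73 genes passed, at an unadjusted p under 0.05 for the latter, where 2.22% of all genes did. The labels do not say whether the numbers pair the arrays. Deviations of same-numbered arrays correlated at 0.05, -0.05 and -0.25 over 15155 probe sets, and WT replicate 2 correlated best with Apcmin replicate 3 (0.21). With 3 arrays a group, whose deviations cancel within the group, such correlations cannot decide whether the arrays are paired.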

Other observations

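Some respiratory chain genes were low on different arrays, in both genotypes. Ndufv3, which belongs to the flavoprotein arm of complex I, was at 10.57, 10.79 and 10.91 in WT and 10.56, 11.03 and 10.90 in Apcmin, so that replicate 1 was the lowest array of each group. Ndufa1, a small subunit needed to anchor complex I in the membrane, was at 9.30, 8.91 and 9.33 in WT and 9.35, 8.90 and 9.18 in Apcmin, with replicate 2 the lowest of each group. Ndufaf1, an assembly factor of complex I, spanned 0.83 log2 units, from 7.63 on the highest WT array and 7.93 on Apcmin replicate 1 to 7.10 on Apcmin replicate 3. The genotype differences of these genes were 0.08, -0.04 and -0.02. These genes were chosen after their values were seen, and the cause was not tested.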
